A study of Mus musculus with 12 samples.

Results

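ETS factors are transcription factors that share a DNA-binding domain, and 10 of them are described here in mammary tumours driven by Myc. They were chosen by gene symbol: the Pea3 group (Etv1, Etv4 and Etv5), 4 epithelial factors (Elf3, Elf5, Ehf and Spdef), and Ets1, Ets2 and Etv6. Of the 10, 9 had a probe set that carries their symbol alone, 16 probe sets of 22690 in all, and 9 genes of 12393 named on the array. Both probe sets of Etv1 also carry the symbol of another gene, so Etv1 has no value here. The 9 genes measured were 2 of the Pea3 group, 4 epithelial factors and 3 others. The selection was made with results of the knockout against wild-type comparison known, and differences between the genotypes in these genes are therefore given as descriptions.

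The tumours came from female FVB mice. All carried a c-myc transgene under the mouse mammary tumour virus (MMTV) promoter, which is active mainly in mammary epithelium. In 6 arrays the genotype was MMTV-c-myc/Hunk KO, and in 6 it was MMTV-c-myc/Hunk WT. Hunk is a protein kinase related to Snf1, and its knockout allele, targeted in E14 embryonic stem cells, has a neomycin cassette in place of the putative promoter and exon 1. The mice were mated 2 times before they were monitored for tumours, and no age is given. The labels number the arrays but do not say that each is a separate mouse or tumour, so p-values measure the spread between these samples, which may be technical. Fewer cells of a type and less RNA per cell cannot be told apart in such bulk samples.

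The Pea3 factors are switched on by receptor tyrosine kinases through ERK, the last kinase of the Ras pathway, and in many tissues they are expressed together with the feedback inhibitors Dusp6 and Sprouty. Elf5 directs the formation of milk-producing alveoli downstream of prolactin. Elf3, Ehf and Spdef belong to epithelia, Spdef above all to secretory cells. Ets1 and Ets2 are founding members of the family and can be phosphorylated by ERK. Etv6 is a transcriptional repressor.

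Promoters of Etv5 and Elf5 are shown because these 2 genes differed most between the genotypes, in opposite directions. Each is the stretch of 250 bases before an annotated transcription start, 5′ to 3′ on the gene's strand, from RefSeq (GRCm38.p6), with the ETS core GGAAG in capitals on either strand. Etv5 is at chr16:22438369-22438618 (minus strand) and Elf5 at chr2:103411848-103412097 (plus strand).
Etv5: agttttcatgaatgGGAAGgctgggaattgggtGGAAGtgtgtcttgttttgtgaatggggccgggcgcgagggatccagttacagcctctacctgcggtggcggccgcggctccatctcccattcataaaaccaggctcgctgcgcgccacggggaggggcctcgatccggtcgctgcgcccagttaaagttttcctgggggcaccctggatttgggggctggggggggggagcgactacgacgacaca
Elf5: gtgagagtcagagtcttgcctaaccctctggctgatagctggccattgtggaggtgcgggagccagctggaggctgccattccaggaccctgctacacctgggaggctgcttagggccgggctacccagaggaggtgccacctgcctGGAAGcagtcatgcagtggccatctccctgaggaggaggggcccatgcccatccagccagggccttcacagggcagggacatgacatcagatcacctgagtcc
The Etv5 window holds 2 copies of the core and the Elf5 window 1. A further start of each gene has 0 copies. GGAAG occurs in 64.1% of all 32851 such windows and in 4 of the 10 windows found for 7 of the 10 factors, so its presence is common. Neither octamer TGAATGAA or TGAATGGA, bound by the ERK-regulated repressor Cic, occurred in the 10 windows, and 2.07% of all windows held either. The STAT site TTCNNNGAA was likewise in 0 of the 10, against 7.02% of all windows. All motifs were searched on both strands, and these counts describe the letters only.

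Values are log2 signals, and a positive difference means a higher signal in the knockout. The signal of the brightest Bacillus control probe set on an array served as its background, 3.71 ± 0.15 in the knockout and 3.60 ± 0.10 in the wild type (SD, n = 6 each). Hunk itself lay between 2.60 and 3.06 in the knockout, at background on all 6 arrays, and between 2.99 and 5.53 in the wild type, above background on 4 of 6. Whether its probe set lies within the deleted part is not given in the sources used here, and one outside it would check the deletion only indirectly. Knockout arrays 4 and 5 resembled each other more than any other pair (SD of their difference 0.259, next pair 0.412), and the differences of Elf5, Elf3, Ehf, Ets1 and Ets2 are also given with both averaged. The 3′ minus 5′ signal of beta-actin, a sign of RNA quality, was 1.26 to 1.72 in the knockout and 1.21 to 1.34 in the wild type. It enters the closing section as a covariate, and its part in the differences is not otherwise tested. The number of arrays limits the precision.

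Etv5 was the factor with the largest difference. Its signal was 2.88, 2.97, 3.16, 2.98, 2.90 and 2.82 on knockout arrays 1 to 6, against 8.16, 4.99, 5.63, 7.34, 8.37 and 6.66 on wild-type arrays 1 to 6. Every knockout array was at background and every wild-type array above it, so the groups did not overlap. The means were 2.95 ± 0.12 in the knockout and 6.86 ± 1.36 in the wild type (SD, n = 6 each), a log2 difference of -3.91 (SE 0.50). With the knockout taken at array background, its signal on this probe set, the brighter one, was at least 8.84-fold lower. The other Etv5 probe set read 2.40 to 3.39 in the knockout, at background throughout, and 3.39 to 6.42 in the wild type, where array 3 was also at background. On that probe set the genotypes overlapped, and the log2 difference was -2.48. The brighter probe set is of a kind (_s_at) that can match related transcripts.

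Etv4, the Pea3 protein itself, had low signals. It read 2.81, 3.07, 3.09, 3.01, 2.89 and 3.01 on knockout arrays 1 to 6, and 4.29, 3.22, 3.39, 3.80, 5.72 and 3.04 on wild-type arrays 1 to 6. It was at background on all knockout arrays and above it on wild-type arrays 1, 4 and 5 alone, so the genotypes overlapped at background. The log2 difference was -0.93 (SE 0.37), and it was -0.57 without wild-type array 5. With signals below background raised to it in both genotypes, the difference was -0.41. No smallest fold is given, because both genotypes hold arrays at background.

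Elf5 was higher in the knockout. Its brighter probe set read 10.97, 10.78, 10.98, 9.92, 9.87 and 11.29 on knockout arrays 1 to 6, against 7.13, 9.84, 9.53, 7.63, 7.27 and 9.69 on wild-type arrays 1 to 6. The groups did not overlap, but the lowest knockout array lay only 0.023 above the highest wild-type array. The means were 10.64 ± 0.60 in the knockout and 8.52 ± 1.30 in the wild type (SD, n = 6 each), 4.34-fold higher, a log2 difference of 2.12 (SE 0.53). With knockout arrays 4 and 5 averaged it was 2.27 and no longer past the threshold used below. The dimmer probe set differed by 2.29 but with overlap, at 4.56 to 8.93 in the knockout and 2.73 to 7.90 in the wild type, 3 of whose arrays did not exceed background.

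Ehf is the neighbour of Elf5 on chromosome 2, with 0 protein-coding genes between them. It read 9.77, 8.84, 8.78, 9.61, 10.49 and 9.14 on knockout arrays 1 to 6, and 8.12, 8.63, 9.37, 8.72, 8.12 and 8.98 on wild-type arrays 1 to 6. The groups overlapped, with 3 knockout arrays above every wild-type array, and the log2 difference was 0.78 (SE 0.31), or 0.66 with knockout arrays 4 and 5 averaged. Each of its 3 probe sets gave a difference of 0.78. Within the knockout Ehf was highest on arrays 5, 1 and 4, whereas Elf5 was lowest on arrays 5 and 4.

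Elf3 had a log2 difference of 1.10 (SE 0.40) with overlap. It read 6.84, 6.42, 5.83, 8.00, 7.49 and 5.56 on knockout arrays 1 to 6, and 5.09, 5.85, 5.94, 5.10, 6.33 and 5.21 on wild-type arrays 1 to 6. Its highest signals were on knockout arrays 4 and 5, and with these averaged the difference was 0.89. Spdef was at background on 10 of the 12 arrays. Its signal was 8.30 on knockout array 1 and 5.35 on wild-type array 3, and from 2.82 to 3.41 on the others, so no mean describes either genotype.

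Ets1 was higher on some knockout arrays and varied little in the wild type. It read 6.08, 6.13, 6.18, 7.39, 8.58 and 6.75 on knockout arrays 1 to 6, and 6.10, 6.01, 6.09, 5.96, 6.03 and 5.94 on wild-type arrays 1 to 6. Knockout arrays 1 to 3 were within or just above the wild-type range and arrays 4 to 6 well above it. The log2 difference of 0.83 (SE 0.37) was 0.49 without knockout array 5 and 0.61 with arrays 4 and 5 averaged. The second bright probe set showed the same arrays, at 7.23, 8.58 and 6.37 on knockout arrays 4, 5 and 6, and 4.90 to 5.30 on knockout arrays 1 to 3, against 4.36 to 5.73 in the wild type. Of the 2 dim probe sets, 1 was above background on 2 knockout arrays and 1 wild-type array and the other on none.

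Ets2 had a log2 difference of 0.69 (SE 0.21), or 0.61 with knockout arrays 4 and 5 averaged. It read 8.67, 8.12, 8.32, 9.10, 8.74 and 8.38 on knockout arrays 1 to 6, and 7.26, 8.13, 8.36, 7.76, 7.68 and 8.03 on wild-type arrays 1 to 6, so that 4 knockout arrays exceeded every wild-type array. Ets2 lies on chromosome 16, as Hunk does, with 51 protein-coding genes between them, and Etv5 lies on that chromosome with 386 in between. Etv6 was above background on knockout array 1 alone, at 3.70, and read 2.56 to 2.65 on the other knockout arrays and 2.45 to 3.01 in the wild type.

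**Figure D1:**
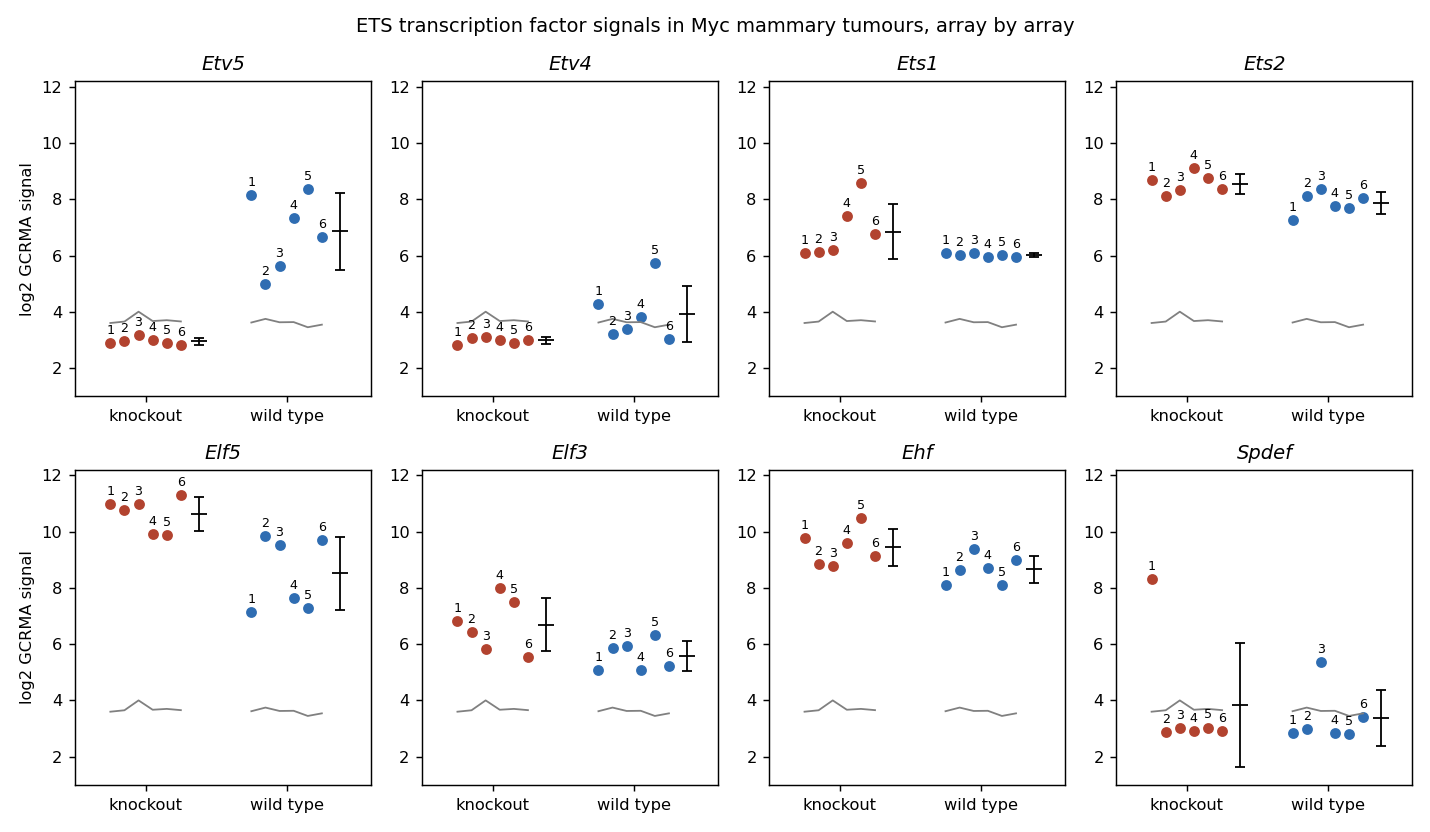
Log2 GCRMA signal of 8 ETS factors on each array, knockout left and wild type right, with replicate numbers, the mean and SD (black) and the array background (grey line). Etv5 is at background on all 6 knockout arrays, Elf5 lies at 9.87 to 11.29 there and at 7.13 to 9.84 in the wild type, and Spdef is far above the others on knockout array 1.

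The mean over 12 arrays exceeded the expression filter for 6 of the 9 factors, and Etv4, Etv6 and Spdef lay below it. Etv5 (lower) and Elf5 (higher) were the 2 past the threshold in limma at a Benjamini-Hochberg adjusted p under 0.05 over 6825 genes, of which 3.34% passed in either direction (1.66% higher, 1.68% lower). Groups without overlap occurred in 3.15% of the genes tested, and among the factors in these same 2. Since the factors were chosen with this comparison known, nothing is read from these counts. Etv5 exceeded the filter through the wild type alone, since its knockout mean was 2.95. It passed in 24 of 26 alternatives, the others being a stricter filter, where it was not tested, and the epithelial covariate. Elf5 passed in 7 of 26, and in 2 of the 12 fits without 1 array, those without wild-type array 2 or 6.

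Averages of the Pea3 factors (Etv4, Etv5) and of Elf3, Elf5 and Ehf were set beside each other on the same arrays. The averages lay on opposite sides of the genes' means on all 6 knockout arrays and on wild-type arrays 1, 4, 5 and 6. On wild-type array 2 both lay below (-0.07 and -0.15), and on wild-type array 3 both above (0.33 and 0.03). With each gene centred on its mean over 12 arrays, Etv4 and Etv5 together averaged -1.33 to -1.05 on the knockout arrays, and -0.07 to 2.87 on the wild-type arrays. Elf3, Elf5 and Ehf together averaged 0.28 to 1.03 on the knockout arrays, and -1.47 to 0.03 on the wild-type arrays. With Spdef added the ranges overlapped, at 0.06 to 1.88 in the knockout and -1.29 to 0.45 in the wild type. Single genes did not all follow. Ehf lay below its mean on knockout arrays 2 and 3 (-0.21 and -0.27), and Elf3 on knockout arrays 3 and 6 (-0.31 and -0.57). Spdef lay below on knockout arrays 2 to 6. On wild-type array 6, Etv4 lay below its mean (-0.40) and Elf5 above (0.11). The choice of members fixes the directions of the averages, so that they carry no test.

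The order of the arrays within a genotype was not used for that choice. Among the wild-type arrays, Etv5 was highest on arrays 5, 1 and 4, and so was Etv4. Elf5 was lowest on the same 3, at 7.27, 7.13 and 7.63, against 9.53 to 9.84 on arrays 2, 3 and 6. Ets2 was also lowest there, at 7.68, 7.26 and 7.76, against 8.03 to 8.36. Ehf did not follow fully, since its lowest signals were on arrays 5, 1 and 2, and Elf3 was highest on array 5. Krt19, a luminal keratin, read 3.30, 5.43 and 5.41 on arrays 5, 1 and 4, and 7.89 to 9.13 on arrays 2, 3 and 6. The other luminal keratins listed did not follow Krt19. On arrays 5, 1 and 4, Krt7 read 9.48, 7.76 and 8.02, Krt8 11.54, 10.38 and 10.81, and Krt18 12.93, 12.21 and 12.19. On arrays 2, 3 and 6, Krt7 read 4.16, 6.19 and 7.84, Krt8 10.28, 11.26 and 10.46, and Krt18 11.29, 12.92 and 11.58. The Elf5 signals form separate clusters in the wild type, so the relation of Elf5 to other genes could not be tested there.

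**Figure D2:**
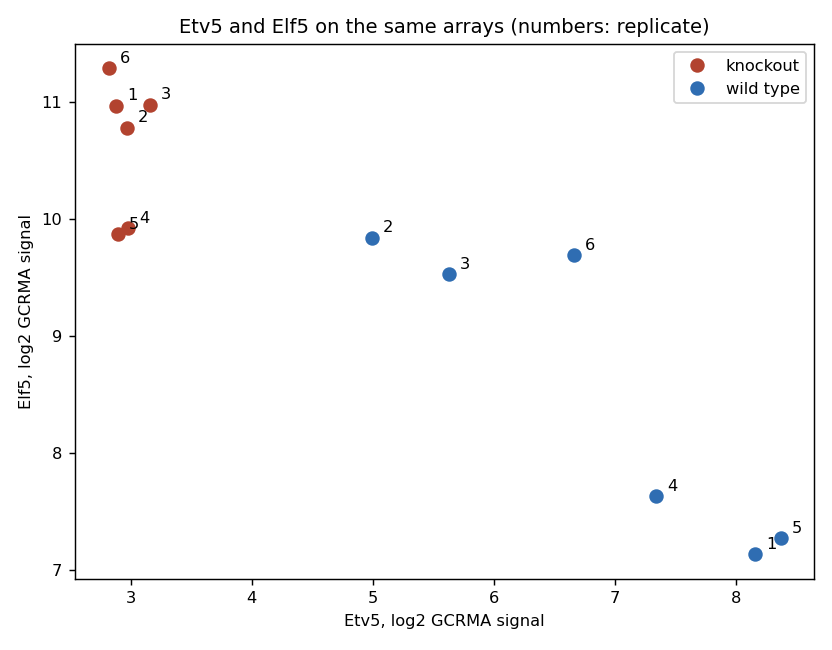
Elf5 against Etv5, both as log2 GCRMA signal, for 6 knockout and 6 wild-type arrays labelled by replicate number. Wild-type arrays 1, 4 and 5 have Etv5 at 7.34 to 8.37 and Elf5 at 7.13 to 7.63, and the knockout arrays sit at the left with Etv5 between 2.82 and 3.16.

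In 6 pairs of genes, correlations within each genotype were looked at where both genes were above background on at least 4 of 6 arrays, which left 7. Of these 7, 5 involved a gene whose signals fell into separate clusters, a gap over 50% of the range, and are not given. Across the 6 wild-type arrays, Etv5 and its usual companion Dusp6 had a Pearson r of 0.84 (exact permutation p = 0.0319, adjusted p = 0.224) and a Spearman rho of 0.89 (exact permutation p = 0.0333, adjusted p = 0.233). Without the 2 arrays farthest from the Etv5 median, r was 0.88 over 4. Across the 6 knockout arrays, Elf3 and Ehf had an r of 0.71 (exact permutation p = 0.118, adjusted p = 0.26) and a rho of 0.66 (exact permutation p = 0.175, adjusted p = 0.415), with r = 0.95 over 4. Neither passed after adjustment over the 7, two-sided. Etv5 and Etv4 were not correlated in either genotype for want of signal, nor was Ets1 with the endothelial gene Pecam1, which was at background on all arrays.

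Among the genes most like Etv5 in their deviations from the genotype means over 12 arrays, among 6825, were Inhbb (a subunit of inhibin and activin, r = 0.96), Cavin2 (0.95) and Plekhb1 (0.93). The cartilage collagen Col2a1 was also among them. Its r is not given, because its wild-type signals form separate clusters. Inhbb read 6.06, 5.69 and 7.47 on wild-type arrays 1, 4 and 5, and 2.80, 3.25 and 5.10 on wild-type arrays 2, 3 and 6. Inhbb read 2.79 to 3.30 in the knockout, where Etv5 was at background, so the spread behind this likeness is mostly among the wild-type arrays. Those ranked most like Elf5 by the same measure were the nucleoside transporter Slc28a3, Sh3glb1, the sterol enzyme Lss, the growth factor binding protein Igfbp2 and the kinase Slk. Their r is not given, because the Elf5 signals form separate clusters. Slc28a3 read 4.89, 4.87 and 4.16 on wild-type arrays 1, 4 and 5, and 7.73 to 8.70 on the others, and 7.67 to 10.21 in the knockout. Each r is over arrays that share the same 12 libraries and describes these alone.

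The partners of the Pea3 factors came from lists drawn up for this comparison with earlier results known. Of 18 ERK feedback and target genes, 15 were measured and 11 tested. Of those measured, 4 fell, 0 rose and 11 did not pass, where 1.68% of all genes tested were lower. The median log2 difference of the tested genes was -1.29, against 0.01 over all 6825. Since the list was drawn up with results known, nothing is read from this count or median. Of the 15, 11 had a negative difference, and 3 (Spry4, Il17rd and Fosl1) were at background on all 12 arrays. Fos differed by 0.40 and Egr1 by -0.58 (limma adjusted p = 0.45 and 0.542). Dusp6, the ERK phosphatase, read 2.91 to 4.69 in the knockout and 6.71 to 10.30 in the wild type (log2 difference -4.92, limma adjusted p = 0.000958), and knockout array 4 was at background. On the wild-type arrays it was highest on arrays 5 and 1, as Etv5 was. Spry2, an inhibitor of receptor signalling, read 3.64 to 5.19 in the knockout and 6.78 to 7.89 in the wild type (adjusted p = 0.000284). It too was at background on knockout array 4, and it was highest on wild-type arrays 1 and 2. Spred2 fell by 1.94 and Spred1 by 1.34 on the log2 scale (adjusted p = 0.00293 and 0.0107).

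Among 16 genes that act on the Pea3 factors (receptors, the repressor Cic and proteins of their turnover), 14 were measured, 1 fell, 0 rose and 13 did not pass. Those of the list that were tested had a median of -0.57. Of all genes tested, 1.68% were lower, and nothing is read from the count in this list, which was drawn up with results known. The one that fell was the receptor Fgfr1, at 2.93, 3.68, 4.79, 4.59, 4.64 and 3.68 on knockout arrays 1 to 6, and 8.53, 4.60, 6.47, 6.22, 7.37 and 7.33 on wild-type arrays 1 to 6 (log2 difference -2.70, limma adjusted p = 0.0261). It was at background on knockout array 1 and close to it on knockout arrays 2 and 6, so the size of the difference is uncertain. Wild-type array 2, which was also lowest for Etv5, lay within the knockout range for Fgfr1. Cic had a difference of -0.25 (adjusted p = 0.495) and the ubiquitin ligase Cop1, which degrades Pea3 proteins, one of 0.38 (adjusted p = 0.168). Of 13 genes described as targets of Pea3 factors, 12 were measured, 5 tested, and 0 passed in limma, with 3 at an unadjusted p under 0.05 (median 0.16).

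**Figure D3:**
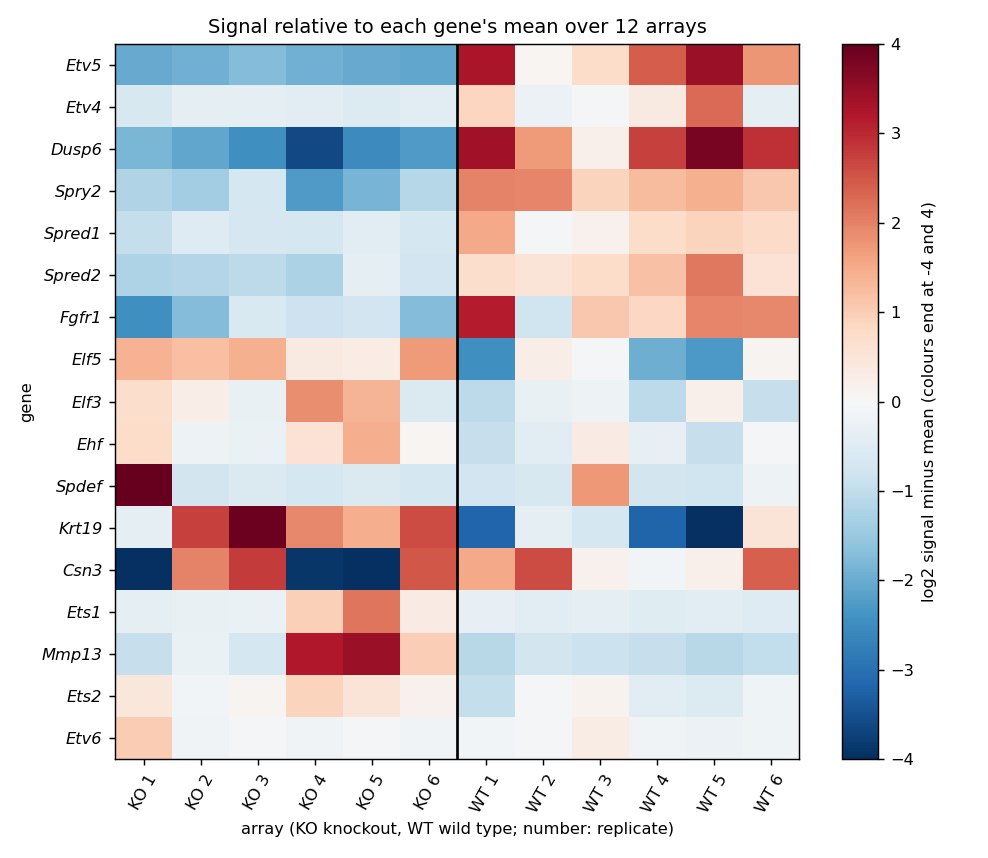
Log2 signal minus each gene's mean over 12 arrays (colour, ending at -4 and 4) for the ETS factors, ERK feedback genes, Fgfr1, Krt19, Csn3 and Mmp13 (rows) on each array (columns, knockout left of the line). Etv5, Etv4 and Dusp6 are at their highest on wild-type array 5 and Elf5 is low on wild-type arrays 1, 4 and 5, and Spdef stands out on knockout array 1.

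On the Elf5 side, 10 of 11 genes of the prolactin pathway and of alveolar specification were measured, 1 fell, 0 rose and 9 did not pass (median of the 8 tested -0.37). Of all genes tested, 1.68% were lower and 1.66% higher. Nothing is read from the counts in this list or in the milk list below, both drawn up with results known. Socs2, a prolactin-induced suppressor of cytokine signalling, was 25.3-fold lower (limma adjusted p = 0.00146), while Stat5a (-0.59, adjusted p = 0.303) and Stat5b (-0.69, adjusted p = 0.199), the mediators of prolactin, did not pass. Of 12 milk and alveolar genes, 1 rose, the lactoferrin gene Ltf (5.04, adjusted p = 0.0427), and 11 did not pass (median of the 11 tested 2.21). The casein gene Csn3 was low on knockout arrays 4 and 5, where Elf5 was lowest, and also on array 1, where Elf5 was high. It read 5.48, 7.37 and 6.95 on knockout arrays 1, 4 and 5, against 13.26 to 14.07 on knockout arrays 2, 3 and 6, while Elf5 was 10.97 on array 1 and 9.92 and 9.87 on arrays 4 and 5. In the wild type Csn3 read 11.15 to 13.88, with 12.78 on array 1, where Elf5 was lowest. Only Csn3, 1 of the 12, had a negative difference (-2.25, limma adjusted p = 0.419). The casein gene Csn2 read 2.21 to 2.30 on knockout arrays 1, 4 and 5 and wild-type arrays 1, 4, 5 and 6. On the others it read 12.48 to 14.22, so no mean describes either genotype.

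Epithelial marker genes differed in part between the genotypes. Of 19 measured, 3 rose, 0 fell and 16 did not pass (median of the 16 tested 0.18), where 1.66% of all genes tested were higher. The 3 were Krt19 (4.08, limma adjusted p = 0.0424), the surface protein Cd24a (0.87, adjusted p = 0.0244) and the splicing factor Esrp2 (0.75, adjusted p = 0.0256). This list too was drawn up with results known, so nothing is read from the count. The mean signal of the 19 was 8.04 to 8.36 on the knockout arrays and 7.75 to 7.98 on the wild-type arrays, and Ovol1, Ovol2 and Foxa1, 3 of the 19, were at background on all 12. Of the 19, 8 had a negative difference, among them Krt18, another luminal keratin (-0.17, adjusted p = 0.802). Grhl1 (-0.89, adjusted p = 0.238) and Tfap2c (-0.80, adjusted p = 0.0788) were also among the 8. Of the 16 tested, 7 had an unadjusted p under 0.05 in limma, in both directions, with Grhl1 and Tfap2c among them. The mean of the 19 did not overlap between the genotypes, so a fit with it as a covariate cannot separate it from genotype. Much of that separation comes from Krt19, whose difference of 4.08 was the largest of the 19, followed by Cldn4 (1.08). The covariate therefore does not stand for epithelial genes in general, and a mean without Krt19 was not fitted. In that fit the differences of Elf3, Ehf and Ets2 were -0.29, -0.02 and -0.02. That of Ets1 was 0.35, and that of Spdef, near background, was -1.04. Those of Etv5 and Elf5 were -4.04 and 2.37, neither past the threshold there. In that fit 1 gene passed in all.

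Ets1 is also made by lymphocytes and endothelial cells. Of 8 lymphocyte genes measured, 6 were at background on all 12 arrays. Their mean was 3.03 to 3.25 in the knockout and 2.97 to 3.47 in the wild type, with Cd3e, the brightest, at 4.22 ± 0.05 in the knockout and 4.20 ± 0.04 in the wild type (SD, n = 6 each). Of 9 endothelial genes, 5 were at background throughout, Pecam1, Cdh5 and Kdr among them. Their mean was 3.53 to 3.73 in the knockout and 3.47 to 3.68 in the wild type, and Egfl7, the brightest, differed by -0.06. With 1 lymphocyte gene and 3 endothelial genes above the expression filter, these lists were hardly tested (limma, 0 past the threshold and 0 at an unadjusted p under 0.05).

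In the other marker lists, macrophage genes averaged 6.23 to 6.89 in the knockout and 6.63 to 6.95 in the wild type (0 of 9 passed in limma, 5 at an unadjusted p under 0.05), with C1qb the brightest (-0.66). Fibroblast genes averaged 6.26 to 7.20 in the knockout and 6.06 to 6.71 in the wild type (0 of 8 passed, with 2 of the 5 tested at an unadjusted p under 0.05), with Col3a1 the brightest (0.94). Basal genes averaged 4.35 to 5.21 in the knockout and 4.33 to 5.78 in the wild type (0 of 9 passed, with 1 of the 6 tested at an unadjusted p under 0.05), with Acta2 the brightest (0.24). Adipocyte genes averaged 4.47 to 6.88 in the knockout and 3.94 to 4.80 in the wild type. Of 6 measured, 1 rose, the lipase gene Pnpla2 (0.67, limma adjusted p = 0.0305), where 1.66% of all genes tested were higher. All 3 tested had an unadjusted p under 0.05. Adipoq was above background on knockout array 2 alone, at 6.29, and Lep and Cidec on no array. The part of these marker lists in the ETS differences was not tested.

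The rest of the ETS family did not pass. Of 16 further members, 15 were measured, 8 tested, and 0 rose or fell in limma, with 2 at an unadjusted p under 0.05 (median of the 8 tested -0.10). These 2 were Elk3, a repressor controlled by Ras and ERK (log2 difference -0.77, SE 0.31, adjusted p = 0.187), and Erf, a repressor that ERK exports from the nucleus (-0.43, SE 0.19, adjusted p = 0.237). Elf1, Elf2 and Gabpa, which many tissues express, had differences of 0.12, -0.07 and -0.16. Erg, the neighbour of Ets2 with 0 protein-coding genes between them, was at background on all 12 arrays, as were the leukocyte factor Spi1 and Fli1, the neighbour of Ets1 on chromosome 9.

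**Figure D4:**
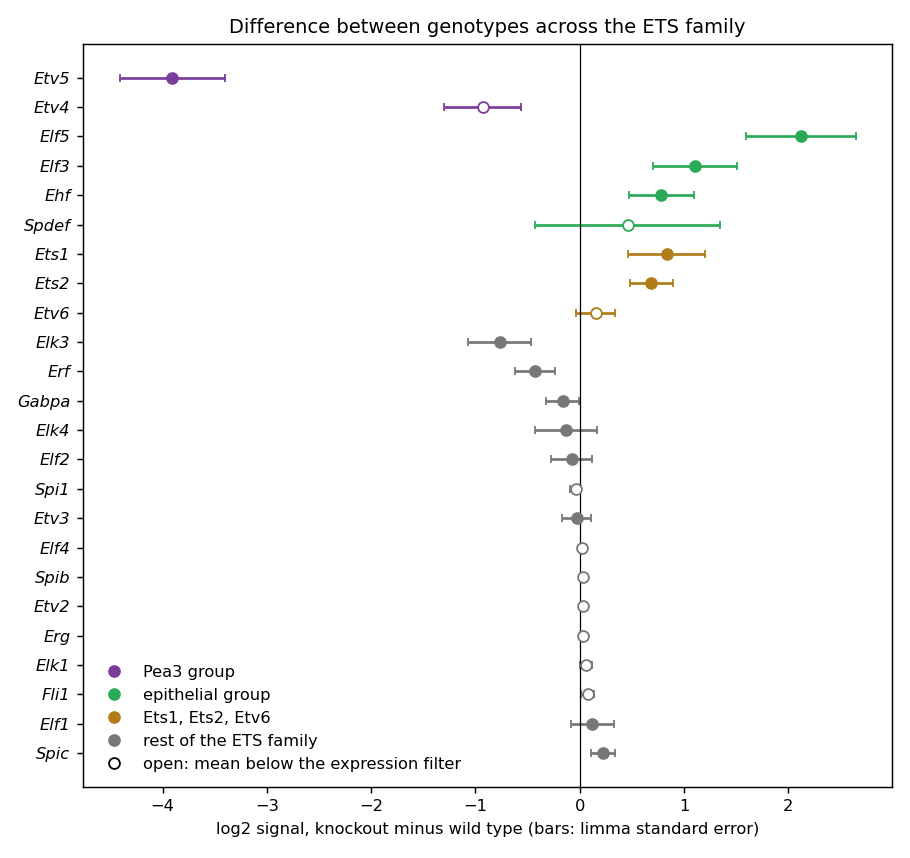
Log2 difference, knockout minus wild type, with its limma standard error for the 9 ETS factors and the 15 other family members measured (open circles lie below the expression filter). Etv5 lies at -3.91 and Elf5 at 2.12, and the 15 others lie between -0.77 and 0.22.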

How the data were processed

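The series holds 12 Affymetrix arrays of tumour RNA, 6 knockout and 6 wild type. The deposited values are log2 signals made by the authors with GCRMA, the tool named in the submitters' processing notes, with version and settings not given in the sources used here. GCRMA pulls dim signals toward a floor, which compresses differences near background. 0 columns were left unused, and no batch is given.

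Probe sets were named from the platform annotation, updated through RefSeq (GRCm38.p6). 20393 carried 1 symbol (20364 found in RefSeq), 691 several and 1606 none. Where several probe sets named a gene, the one brightest on average stood for it. Genes whose mean exceeded 3.98, the median over probe sets, entered limma 3.58.1 (trend) in R 4.3.3, with genotype as the only term. Members and lists were chosen with earlier results of these data known.

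Named were the 10 members, up to 4 genes past the threshold per list, the brightest gene of each marker list and the 5 most like Etv5 and Elf5, of which 1 is not reported here. Other genes of the lists were named with their values seen. Permutations used scipy 1.17.1, exact over 720 orders (smallest two-sided p 0.0028 for Spearman rho). In simulated data for this comparison (6811 genes tested), changes of 1 and 2 on the log2 scale were recovered in 51.1% and 89.2%, with 10 false among 131 calls. Same-numbered arrays had correlations of deviations from -0.02 to 0.14, so the numbers were not taken as pairs.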

Additional observations from a re-analysis of the deposited data

Results flagged for a closer look

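In 32 groups of 6 signals (16 probe sets in each genotype), 7 held an array whose gap to its nearest neighbour exceeded 0.625 of the range, where chance gives about 1 in 20. Spdef was 8.30 on knockout array 1, with the next array at 3.04, and 5.35 on wild-type array 3, with the next at 3.41. Both were above background. Etv6 was 3.70 on knockout array 1, just above background, with the next at 2.65, and 3.01 on wild-type array 3, at background. The 3 other cases were all at background: the dimmer Etv5 probe set at 3.39 on knockout array 3, and the dim Ets1 probe sets at 2.96 (lowest) on wild-type array 1 and 3.49 on knockout array 5. The same arrays, knockout 1 and wild-type 3, stood out for both Spdef and Etv6.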

How the results depend on the processing

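Etv5 kept its sign in all 26 alternatives, with a log2 difference from -4.28 to -3.14, and Elf5 in all 26, from 1.75 to 2.38. The alternatives reuse the same arrays for genes chosen with this comparison known, so they carry no further test of either. The 2 members past the threshold became 1 with no expression filter, the 75th percentile filter, eBayes without trend, quantile normalization, median centring, array weights, knockout arrays 4 and 5 averaged, the beta-actin covariate and the mean of probe sets, and 0 with the epithelial covariate. Leaving out 1 array gave 1 to 2. The count of other ETS genes was 0 in every alternative run. Over all genes, 113 were higher and 115 lower. These counts were 55 and 57 with no filter, 199 and 191 with array weights, 59 and 65 with knockout arrays 4 and 5 averaged, 47 and 25 with the beta-actin covariate, 1 and 0 with the epithelial covariate, and 44 to 101 and 50 to 122 without 1 array. The lowest, 44 and 50, came without wild-type array 4, and either count also fell by over 1.5 times without knockout array 3, 4, 5 or 6 or wild-type array 3, 5 or 6. Median centring on all probe sets gave 68 higher and 126 lower (35.1% higher, against 49.6%), and on tested probe sets, an alternative chosen after seeing the data, 61.1% higher of 257. With the replicate number as a block the counts were 28 and 41, with both members kept. The numbers do not pair the arrays. Without the 2 arrays farthest from the median, the correlations over 4 were 0.88 for Etv5 with Dusp6 (exact permutation p = 0.0833) and 0.95 for Elf3 with Ehf (exact permutation p = 0.0417). Neither p is adjusted, and 0.0417 is the smallest that 4 arrays can give, so nothing is read from it. Where a call was lost, the cause was not tested. Etv4, Etv6 and Spdef lie near background, which limits what their signals can show.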

Other observations

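Spdef was not alone on knockout array 1. In a look made after its values were seen, 34 genes of 12393 were at least 2 higher there on the log2 scale than on any other array, against 0 to 14 genes on each of the other arrays. Spdef ranked 16 by that excess (2.95). Ahead of it were the secretoglobin Scgb1b27 (14.49, next array 8.74), the membrane-bound transcription factor Creb3l4 (8.15, next 3.11), the calcium pump gene Atp2a3 (8.72, next 4.64), the mucin-type glycosyltransferase Galnt6 (5.71, next 1.94) and the lactoperoxidase gene Lpo (11.31, next 7.64). Ets1 had a companion in Mmp13, a collagenase and listed target of the Pea3 factors, which did not pass (log2 difference 1.91, limma adjusted p = 0.165). Mmp13 read 3.67, 4.33, 3.90, 7.80, 8.07 and 5.60 on knockout arrays 1 to 6, highest on the arrays where Ets1 was, against 3.49 to 3.86 in the wild type. Knockout arrays 4 and 5 are the pair that resembled each other most. Col1a1 (10.76 and 10.54), Postn (10.35 and 10.40) and Mmp14 (6.94 and 6.59) were also highest on that pair. The relation of Ets1 to these genes was not tested.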
